A study of Mus musculus with 3 samples.

Results

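Lipid A, the membrane anchor of bacterial lipopolysaccharide, reaches its receptor TLR4 through a chain of carrier and co-receptor proteins, and the signal leaves TLR4 through adaptor proteins that share its TIR domain. The 10 genes described here encode this input and output layer together with close relatives of it: Cd14, Ly96, Lbp, Cd180, Ly86, Unc93b1, Myd88, Tirap, Ticam1 and Ticam2. They were chosen by symbol, with no threshold on level in the rule, and were 10 of 55418 annotated gene symbols in the tables. All 10 were found, each with 1 gene identifier.

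The cells were macrophages grown from bone marrow of C57BL/6J mice and given lipid A at 100 ng/ml for 90 min. It was total RNA of the cytosolic fraction, depleted of ribosomal RNA, with 1 µg of RNA per library. There was 1 group of 3 libraries, numbered as biological replicates 1, 2 and 3, with no genetic change stated. The labels give the 3 libraries the same donor identifier and record neither sex nor age. They do not say whether the cultures were separate. Every SD here therefore measures the spread between these libraries, which may be technical, and every p-value rests on the same libraries. The limma p-values also draw on the spread of all genes tested, so they do not measure the spread of a gene by itself. Untreated cells were not analysed here, so a level at 90 min is a level and not an induction.

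By textbook account, LBP extracts lipopolysaccharide from aggregates and hands it to CD14, and CD14 passes it to MD-2, the product of Ly96, which sits in the TLR4 ectodomain and holds the lipid A. RP105, the product of Cd180, is a TLR4 relative without a TIR domain and binds MD-1, the product of Ly86, as TLR4 binds MD-2. UNC93B1 carries the nucleic acid-sensing Toll-like receptors from the endoplasmic reticulum to endosomes. Inside the cell TIRAP brings MyD88 to TLR4 at the plasma membrane, and TRAM, the product of Ticam2, brings TRIF, the product of Ticam1, to TLR4 on endosomes.

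Replicates 1, 2 and 3 held 33671556, 47764593 and 59332546 expected counts that fell on annotated genes. All 7 macrophage markers (Lyz2, Adgre1, Csf1r, Cd68, Mertk, Fcgr1 and Itgam) lay above the median expressed gene, with a summed level of 4666 to 6670 TPM. TPM is the share of all transcripts in a library, corrected for length and scaled to a common total. The summed levels were 0.37 to 0.70 TPM for 5 B cell markers, 0 to 0.02 TPM for 5 hepatocyte markers, 2.77 to 4.98 TPM for 5 neutrophil markers and 1.05 to 1.54 TPM for 5 dendritic cell markers. They were 0 to 0.04 TPM for 4 T and NK cell markers and 0.05 to 0.13 TPM for 4 fibroblast markers. Alb, Ttr, Serpina1a, Ahsg and Ly6g were at 0 in every library.

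Sequences in the transcript annotation (GENCODE M21, mm10) distinguish the forms of these genes that the transcript values depend on. The junction of exon 2 to exon 3 of Ly96 is shown for its main and its shorter coding transcript, because the capitals mark 54 bases at the start of exon 3 (chromosome 1, 16700795 to 16700848, plus strand) that Ly96-202 lacks, a loss of 18 codons in frame.
Ly96-201: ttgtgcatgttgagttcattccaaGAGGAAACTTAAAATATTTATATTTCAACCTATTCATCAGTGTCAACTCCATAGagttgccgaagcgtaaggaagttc
Ly96-202: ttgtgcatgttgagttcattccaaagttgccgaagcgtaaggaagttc
The junction that follows exon 2 of Cd180 is shown because 2 annotated coding transcripts continue from it into different exons, marked in capitals: the 24 first bases of exon 3 (chromosome 13, 102704705 to 102706955, plus strand) in Cd180-201 and those of an alternative last exon (chromosome 13, 102739166 to 102739629) in Cd180-203.
Cd180-201: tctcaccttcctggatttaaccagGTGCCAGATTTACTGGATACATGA
Cd180-203: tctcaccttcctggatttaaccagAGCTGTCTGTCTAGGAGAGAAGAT
Exon 2 of Myd88 (135 bases in capitals, chromosome 9, 119338576 to 119338710, minus strand, with 12 bases on either side) is shown because a short form of MyD88 that skips this exon is known in mouse and human as an inhibitor of the pathway.
Myd88-201: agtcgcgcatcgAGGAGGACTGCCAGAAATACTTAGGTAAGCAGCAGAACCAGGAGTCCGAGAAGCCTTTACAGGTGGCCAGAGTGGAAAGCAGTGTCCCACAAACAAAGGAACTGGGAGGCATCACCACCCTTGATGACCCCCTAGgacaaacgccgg
Of the 3 annotated Myd88 transcripts, 0 join exon 1 to exon 3, so the short form had no entry in the tables and was not measured.

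The members spanned a wide range, from Cd14 among the 52 most abundant of 21991 protein-coding genes in every library to Lbp below 1 TPM. As a reference, the median level of the 8747 protein-coding genes averaging 1 TPM or more was used, which stood at 7.38, 6.08 and 6.21 TPM in replicates 1, 2 and 3. Levels were compared as log2(TPM + 0.1), so differences of the lowest genes are understated. All 10 members passed the minimum mean of 0.1 TPM. Of them 7 lay above the reference by at least 1 log2 unit, against 20.5% of the 13327 genes tested (limma one-sample test, Benjamini-Hochberg adjusted threshold 0.05). Another 2, Tirap and Lbp, lay below it by as much, against 50.6% of all genes, and Ticam2 was not called. The genes tested include noncoding genes and genes averaging 0.1 to 1 TPM, which the reference leaves out. All members are protein-coding, so these shares are not those of genes of like kind. The 7 above were 5 in the second deposited quantification, set against its own reference genes, without Ly96 and Ticam1. With a reference of genes of at least 5 TPM they were 4, without Ly96, Myd88 and Ticam1. The median member stood at 1.69 log2 units from the reference and the median of all genes tested at -1.06.

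**Figure D1:**
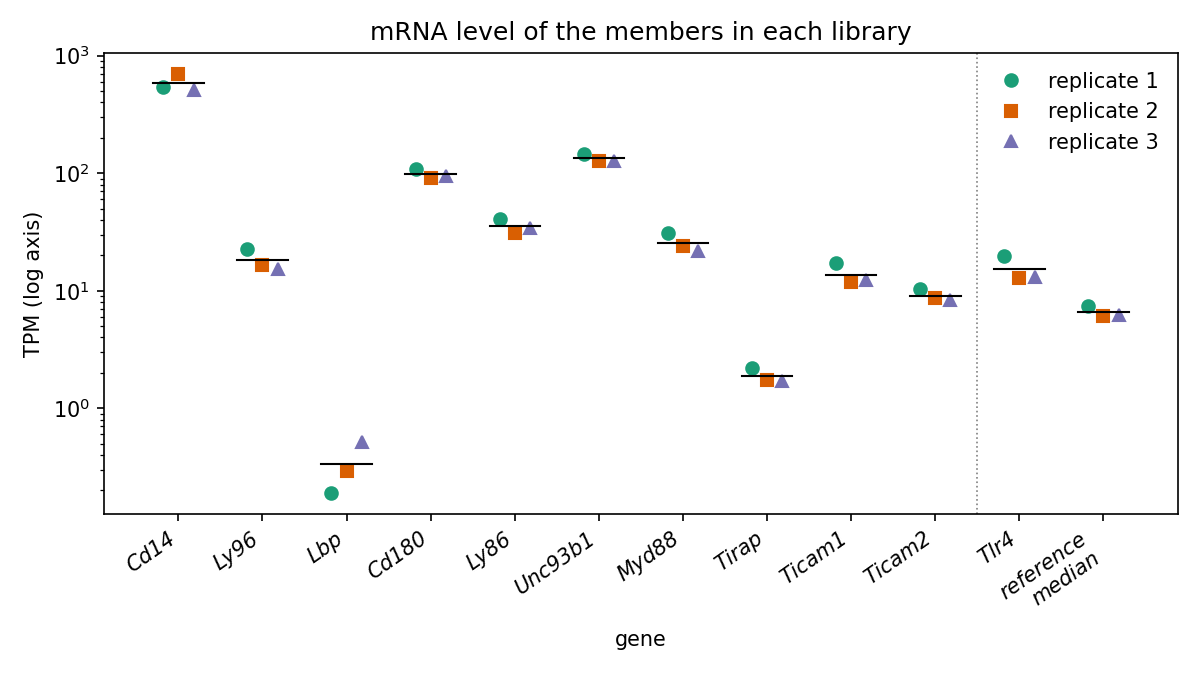
TPM of the 10 members in each library (log axis), with Tlr4 and the median of expressed protein-coding genes at the right. Points are the replicates and bars the means. Cd14 lies between 513 and 697 TPM in the 3 libraries, and Lbp is the one member below 1 TPM.

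Among the lipid A carriers and co-receptors, Cd14 mRNA was abundant, Ly96 mRNA stood near Tlr4 mRNA, and Lbp mRNA was the lowest of all members. Cd14 (ENSMUSG00000051439.7, chromosome 18, 36725067 to 36726798, minus strand) encodes the GPI-anchored co-receptor that loads lipid A onto the receptor complex and starts its endocytosis. It had 545, 697 and 513 TPM in replicates 1, 2 and 3 (585 ± 98.4, SD, n = 3), from 43261, 90343 and 79693 counts. Replicate 2 was the highest of these and replicate 3 the lowest, and all 3 lay far above the reference. The difference from the reference was 6.45 ± 0.33 log2 units, 87.5-fold, with 3 of 3 libraries above it (limma, Benjamini-Hochberg adjusted p = 3.76e-05). In bulk RNA, a difference in the number of cells of a type and one in RNA per cell cannot be told apart.

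Ly96 (ENSMUSG00000025779.10, chromosome 1, 16688051 to 16709611, plus strand) had 22.7, 16.6 and 15.2 TPM in replicates 1, 2 and 3 (18.2 ± 4.02), against 19.6, 13.0 and 13.0 TPM for Tlr4 (15.2 ± 3.85). In each library the co-receptor was slightly above its receptor, and replicate 1 was the highest for both. The difference of Ly96 from Tlr4 was 0.26 ± 0.08 log2 units, 1.20-fold, higher in 3 of 3 libraries, and was not called (limma, Benjamini-Hochberg adjusted p = 0.119). The standard error in that limma test was 0.143, larger than the SD, because it draws on the spread of all genes tested. An exact two-sided sign-flip test gave p = 0.25, the smallest that 3 libraries allow. Cd14 exceeded Ly96 by 5.01 ± 0.41 log2 units, 32.2-fold, and exceeded Tlr4 by 5.27 ± 0.48, 38.7-fold (limma, Benjamini-Hochberg adjusted p = 4.45e-07).

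Lbp (ENSMUSG00000016024.9, chromosome 2, 158306493 to 158332852, plus strand), which encodes a plasma protein made mainly by liver, had 0.19, 0.29 and 0.52 TPM in replicates 1, 2 and 3 (0.333 ± 0.169). These rest on 26, 63 and 78 counts, or 0.772, 1.32 and 1.31 CPM, where a count of 0 would allow up to 0.0891, 0.0628 and 0.0506 CPM (counting error only). Lbp was therefore detected in every library, while 4 of the 5 hepatocyte markers were at 0 in all of them and the fifth, Apoa1, reached 0.02 TPM in replicate 1 alone. Its difference from the reference was -4.01 ± 0.67 log2 units (limma, Benjamini-Hochberg adjusted p = 0.000499).

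Cd180 and Ly86, the genes of the TLR4-like receptor and its partner, were both expressed above Tlr4 and Ly96. Cd180 (ENSMUSG00000021624.9, chromosome 13, 102693558 to 102739629, plus strand) had 109, 91.7 and 93.6 TPM in replicates 1, 2 and 3 (98.1 ± 9.52). It exceeded Tlr4 by 2.71 ± 0.21 log2 units, 6.53-fold (limma, Benjamini-Hochberg adjusted p = 2.49e-06). Ly86 (ENSMUSG00000021423.6, chromosome 13, 37345208 to 37419036, plus strand) had 41.0, 30.9 and 34.2 TPM (35.4 ± 5.15). Its lowest library was above the highest of Tlr4, and the difference was 1.23 ± 0.17 log2 units, 2.35-fold (limma, Benjamini-Hochberg adjusted p = 0.000155).

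Within the pairs the balance differed. Ly86 was lower than its receptor gene Cd180 in every library, by -1.41, -1.56 and -1.45 log2 units in replicates 1, 2 and 3 (mean -1.47 ± 0.08, 2.78-fold lower, exact sign-flip p = 0.25, the smallest possible). Ly96, as given above, was slightly higher than Tlr4 in every library. The MD-1 gene Ly86 exceeded the MD-2 gene Ly96 by 0.97 ± 0.17 log2 units, 1.96-fold. B cells are another cell type in which RP105 and MD-1 are well known. Their marker Cd79b had 0.62, 0.36 and 0.56 TPM, and the other 4 B cell markers did not exceed 0.06 TPM in any library.

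Unc93b1 (ENSMUSG00000036908.17, chromosome 19, 3935186 to 3949340, plus strand) was second to Cd14 among the members, at 146, 128 and 126 TPM in replicates 1, 2 and 3 (133 ± 11.0). It stood 4.33 ± 0.04 log2 units above the reference, 20.1-fold (limma, Benjamini-Hochberg adjusted p = 3.17e-05), and 3.15 ± 0.23 above Tlr4, 8.87-fold (limma, Benjamini-Hochberg adjusted p = 1.29e-06). Of the 8 receptor genes listed as its partners, 6 passed the minimum level, 3 lay above the reference (Tlr7, Tlr8 and Tlr13) and 1, Tlr5, below it. The highest were Tlr7, a sensor of single-stranded RNA, at 62.2 ± 11.3 TPM, and Tlr13, a sensor of bacterial ribosomal RNA in mice, at 52.5 ± 4.30 TPM. In each library Unc93b1 was higher than either of them. Unc93b1 itself had, as above, 146, 128 and 126 TPM, against 182, 148 and 149 TPM for the 8 partners summed.

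Of the 4 TIR adaptor genes, Myd88 was the highest, followed by Ticam1, Ticam2 and Tirap in every library. Myd88 (ENSMUSG00000032508.8, chromosome 9, 119335934 to 119341411, minus strand), the adaptor of most Toll-like receptors and of the interleukin-1 receptor family, had 30.85, 23.95 and 21.9 TPM in replicates 1, 2 and 3 (25.6 ± 4.69). It stood 1.94 ± 0.13 log2 units above the reference, 3.83-fold (limma, Benjamini-Hochberg adjusted p = 9.00e-05). Set against genes of at least 5 TPM it stood at 0.91 and was not called. Against Tlr4 the difference was 0.76 ± 0.12 log2 units, higher in 3 of 3 libraries, with an adjusted p of 0.00184 (limma, Benjamini-Hochberg) but under the minimum of 1 log2 unit needed for a call.

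Ticam1 (ENSMUSG00000047123.8, chromosome 17, 56269319 to 56276786, minus strand), the TRIF gene, had 17.2, 11.75 and 12.25 TPM (13.7 ± 3.01). Its difference from Tlr4 was -0.14 ± 0.05 log2 units, negative in each library, and was not called (limma, Benjamini-Hochberg adjusted p = 0.380). The standard error in that limma test was again larger than the SD, at 0.142. Ticam2 (ENSMUSG00000056130.10, chromosome 18, 46557291 to 46574533, minus strand), the TRAM gene, had 10.3, 8.68 and 8.29 TPM (9.10 ± 1.09). It was the one member within 1 log2 unit of the reference, at 0.47 ± 0.05 above it (limma, Benjamini-Hochberg adjusted p = 0.00215). TRIF mRNA exceeded that of its bridging adaptor by 0.57 ± 0.15 log2 units, 1.49-fold, in 3 of 3 libraries (exact sign-flip p = 0.25).

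Tirap (ENSMUSG00000032041.15, chromosome 9, 35184551 to 35200291, minus strand), the bridging adaptor of MyD88, was the lowest adaptor gene, at 2.22, 1.75 and 1.71 TPM (1.89 ± 0.284). Its difference from the reference was -1.74 ± 0.06 log2 units (limma, Benjamini-Hochberg adjusted p = 6.34e-05). Tirap was lower than Myd88 by -3.68 ± 0.07 log2 units, 12.8-fold lower (limma, Benjamini-Hochberg adjusted p = 5.95e-06), and lower than Tlr4 by -2.92 ± 0.15, 7.57-fold lower (limma, Benjamini-Hochberg adjusted p = 1.35e-06). The other bridging adaptor, Ticam2, exceeded Tirap by 2.21 ± 0.04 log2 units, 4.63-fold, in 3 of 3 libraries (exact sign-flip p = 0.25). Each bridging adaptor gene was thus below the gene of the adaptor it recruits, by 12.8-fold for Tirap and Myd88 and by 1.49-fold for Ticam2 and Ticam1. Whether these gaps differ was not tested.

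Counted against Tlr4, 4 of 10 members lay above it by at least 1 log2 unit (Cd14, Cd180, Ly86 and Unc93b1), where 9.73% of all genes did, and 2 lay below it (Tirap and Lbp), where 68.4% did (limma, adjusted threshold 0.05). The median member was 0.51 log2 units above Tlr4 and the median of all genes tested was at -2.24. Counted against Myd88, 3 of the other 9 lay above it (Cd14, Cd180 and Unc93b1), where 5.88% of all genes did, and 3 lay below it (Tirap, Ticam2 and Lbp), where 78.7% did. The median over those 9 members was -0.50 log2 units and that of all genes tested -3.00. Since every gene is set against the same anchor, the spread of the anchor enters all of these differences.

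The order of the members by level was Cd14, Unc93b1, Cd180, Ly86, Myd88, Ly96, Ticam1, Ticam2, Tirap and Lbp. Each of the 9 neighbours in this order was separated: the higher gene was higher in 3 of 3 libraries, with a mean log2 difference over 2 SD of the within-library differences. The order was set by mean TPM in the same 3 libraries, so which gene is higher on average was not tested. Errors in assigning reads to overlapping genes are not part of that SD. The narrowest step was Ly96 over Ticam1, at 0.40 ± 0.09 log2 units, followed by Unc93b1 over Cd180, at 0.44 ± 0.03. The widest were Tirap over Lbp, at 2.26 ± 0.73, and Ticam2 over Tirap, at 2.21 ± 0.04. In the second quantification the order was the same, but the narrowest step was Myd88 over Ly96, at 0.38 ± 0.03, with Ly96 over Ticam1 at 0.53 ± 0.08, and the widest after Tirap over Lbp was Cd14 over Unc93b1, at 1.99 ± 0.30.

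Genes with the most similar levels across the 3 libraries were found by Euclidean distance on log2(TPM + 0.1) over all protein-coding genes, as a description. Nearest to Ly96 were Dcxr, with 22.5, 16.3 and 15.0 TPM (distance 0.0334), and Lrch4 (0.0457). Nearest to Myd88 were Rtraf, with 30.9, 23.2 and 21.5 TPM (0.0524), and Rab31 (0.0587). Unc93b1 was closest to Tmbim6 (0.0401) and Atp6v1a (0.0828). Cd14 had no such close match: its nearest were Grn, at 612, 569 and 565 TPM (0.364), and Mpeg1 (0.423), neither of which was highest in replicate 2. By level Cd14 ranked 52, 31 and 49 of 21991 protein-coding genes in replicates 1, 2 and 3, and Ly96 1812, 1996 and 2207. How far the number of genes near a level sets these distances was not tested.

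Between the replicate libraries the members as a group spread about as much as all genes tested. On counts scaled by TMM, the SD of log2 CPM (counts as a share of the scaled library total) over the libraries had a median of 0.0997 over the 10 members and 0.120 over the 12330 genes tested. Cd180 varied least, with 425, 438 and 438 CPM (SD 0.025), an SD larger than that of only 4.60% of genes. Unc93b1, with 459, 492 and 468 CPM (SD 0.053), and Ticam2, with 69.2, 69.7 and 64.9 CPM (SD 0.056), followed. Cd14 had 1226, 1933 and 1380 CPM, a 1.58-fold range, and its SD of 0.34 exceeded that of 87.1% of genes. Lbp had the highest SD, 0.48, at 0.780, 1.39 and 1.39 CPM. The percentages for Cd180 and Cd14 are over genes of every level, not of like level.

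None of these spreads passed a test of variation beyond that of genes of like level. An edgeR goodness-of-fit test against the trended dispersion called 0 of 10 members, against 2.29% of all genes tested, with 0 members at an unadjusted p under 0.05. At that share, 0 of 10 does not set the members apart from other genes. With DESeq2 size factors in place of TMM, 0 members were called and 0 had an unadjusted p under 0.05. The adjusted p of Cd14 was 1.00 (unadjusted 0.474; edgeR). Of the members, 4 were highest in replicate 1 on this scale, 4 in replicate 2 and 2 in replicate 3, where these shares were 38.3%, 26.1% and 35.6% over all genes.

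**Figure D2:**
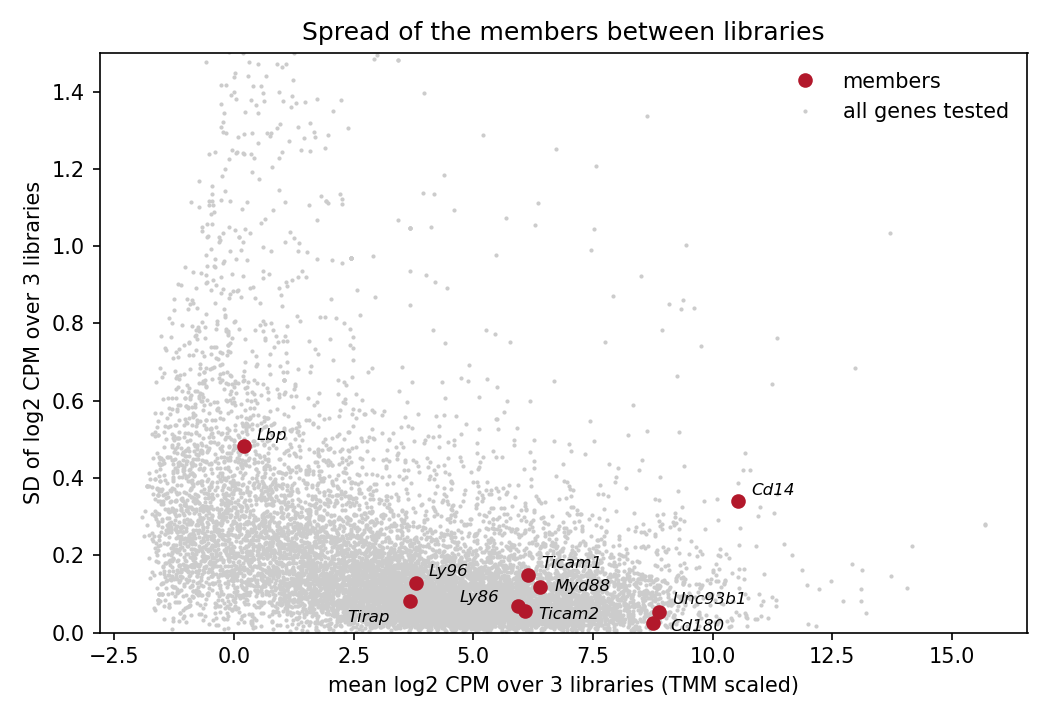
SD of log2 CPM over the 3 libraries against mean log2 CPM, for the 10 members (red) and all genes tested (grey). Cd14 and Lbp have the largest SDs among the members, and Cd180 the smallest. The axis ends at 1.5, and 28 genes above it are not drawn.

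Most members were represented by 1 coding transcript. The leading transcript held over 90% of the TPM of its gene in 7 of 10 members, and its median share was 98.0% ± 1.66 (99.2%, 98.8% and 96.1% in replicates 1, 2 and 3). The count over 90% depended on the measure. By TPM the leading shares of Cd14, Unc93b1 and Lbp were 91.0%, 89.4% and 84.0%. By expected counts they were 95.7%, 97.4% and 97.2%, and in the second quantification 89.2%, 85.8% and 75.1%. All TPM of Ticam1 fell on its only annotated transcript. Ly86-201 held 99.8% ± 0.174, Myd88-201 99.0% ± 0.395, Ticam2-201 98.6% ± 1.20 and Ly96-201 98.5% ± 0.860. The shorter Ly96-202 shown above had 1.79, 2.23 and 3.61 estimated counts in replicates 1, 2 and 3, under the 3 counts that a count of 0 allows in all but replicate 3.

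Cd180-201 held 95.3% ± 0.754 of the Cd180 level. The form with the alternative last exon, Cd180-203, held 2.31%, 1.92% and 2.06% in replicates 1, 2 and 3, from 91.05, 104.63 and 140.08 estimated counts. That last exon overlaps the gene Mast4 on the opposite strand over 187 identical bases, and Mast4 stood at 0.35, 0.38 and 0.52 TPM. The sources used here do not say whether counting used the strand, so reads of these bases cannot be assigned to either gene.

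Tirap had the lowest mean share on its leading transcript, with 67.9% ± 2.48 on Tirap-201 and 23.9% ± 2.58 on Tirap-203. These differ outside the coding region: 4 Tirap transcripts (201, 203, 205 and 207) share the same coding exons of 747 bases. Together these 4 held 97.4% ± 0.333. The Tirap shares also depended on the measure, by more than these SDs. Tirap-201 held 83.0% by expected counts and 52.2% of the TPM in the second quantification. In that quantification the 4 transcripts together held 91.2% ± 2.88. In Unc93b1 the coding transcript Unc93b1-203 held 89.4% ± 1.51 and transcripts annotated as retained introns 6.55% ± 0.572. Lbp-201 held all Lbp signal in replicates 1 and 2 and 51.9% of the TPM in replicate 3, where 6.54 estimated counts on the short Lbp-203 gave the other 48.1%. By expected counts the Lbp-203 share in replicate 3 was 8.38%.

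**Figure D3:**
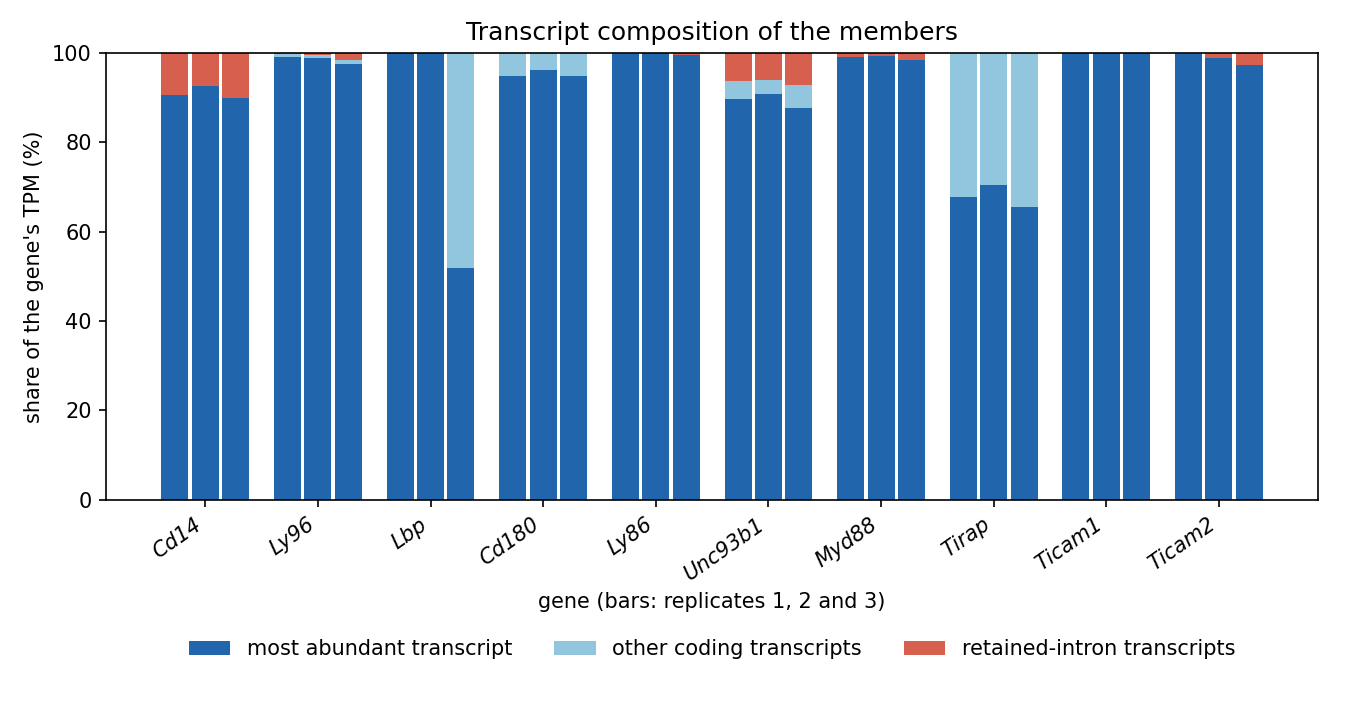
Share of the TPM of each gene by kind of transcript, with 1 bar for each of replicates 1, 2 and 3. Leading transcripts hold most of each bar, except that Tirap is divided among coding transcripts and Lbp in replicate 3 rests on few counts.

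**Figure D4:**
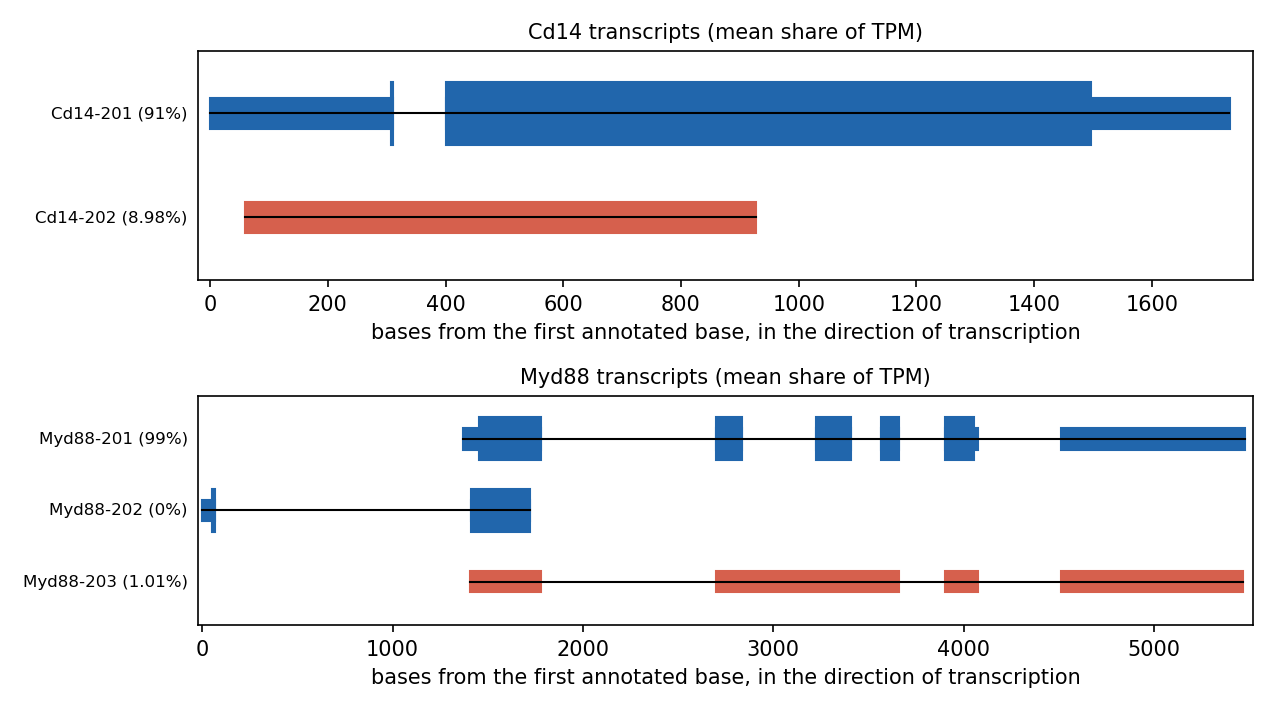
Annotated exons of the transcripts of Cd14 and Myd88 by distance from the first annotated base, in the direction of transcription, with the mean share of TPM beside each. Tall boxes are coding, low boxes are noncoding, lines between boxes are introns, and red marks transcripts annotated as retained intron. The retained introns of Cd14-202 and Myd88-203 appear as unbroken exon.

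Retained-intron transcripts took their largest shares in Cd14 and Unc93b1, and those shares were smaller by counts than by TPM. Cd14-202, which keeps the 91-base intron 1 of Cd14, held 9.42%, 7.47% and 10.04% of the Cd14 level in replicates 1, 2 and 3. That mean was above that of 79.8% of 5227 genes with both coding and retained-intron transcripts. These 5227 genes averaged 1 TPM or more, and genes with no retained-intron signal in any library were left out of them. Of the expected counts of Cd14, Cd14-202 held 4.47%, 3.58% and 4.88%. Unc93b1 had 6.32%, 6.14% and 7.21% of TPM, above 74.8% of genes, and 1.62%, 1.79% and 2.42% of expected counts. Myd88-203, which keeps introns 2 (389 bases) and 3 (160 bases), the introns on either side of exon 3, held 0.810%, 0.752% and 1.46%, above 30.3% of genes. Ticam2 had 0.290%, 1.15% and 2.65%, Ly96 0.220%, 0.542% and 1.58%, and Ly86 0.122%, 0.0970% and 0.410%.

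The share was highest in replicate 3 in 6 of these 6 members, in both deposited quantifications and by expected counts. Of the 5227 genes compared, 72.5% were highest in that replicate by TPM. Their median share was 1.00%, 1.72% and 3.52% in replicates 1, 2 and 3. The nuclear long noncoding RNAs Malat1, at 128, 335 and 913 TPM, and Neat1, at 12.9, 24.1 and 66.9 TPM, were highest in the same replicate. The part of nuclear RNA in the shares of the members was not tested.

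**Figure D5:**
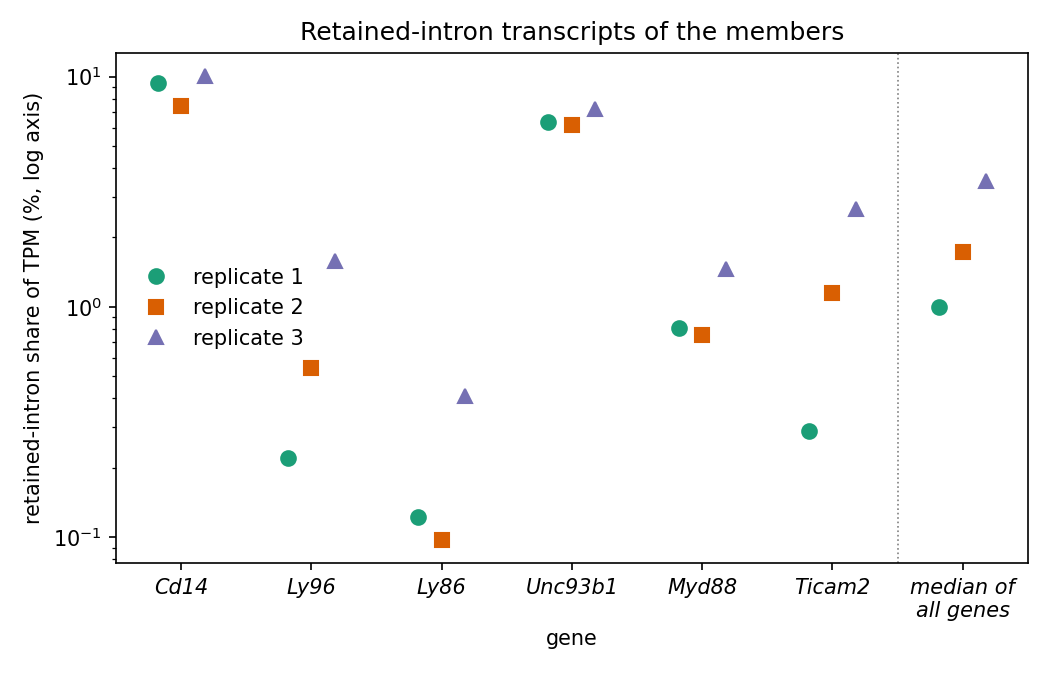
Retained-intron share of the TPM of 6 members in replicates 1, 2 and 3, beside the median of 5227 genes with both kinds of transcript (marked as all genes). Those genes averaged 1 TPM or more and had retained-intron signal in some library. Every member is highest in replicate 3, as is that median, and Cd14 and Unc93b1 stand highest throughout.

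The second deposited quantification was compared with the first gene by gene. After the log2 ratio of the second over the first was centred on the median gene, 0 of the 9 members with at least 1 TPM differed by 1 log2 unit or more, against 2.72% of 9481 genes higher and 1.93% lower (limma, adjusted threshold 0.05). The centred ratios ran from -0.20 for Ticam2 to 0.22 for Tirap, and 6 of the 9 (Cd14, Ly86, Myd88, Tirap, Ticam1 and Ticam2) had an adjusted p under 0.05 but fell short of the minimum size. The second quantification had its own reference median, from protein-coding genes averaging 1 TPM or more in it. Against that median Ticam2 stood at -0.19 log2 units, against 0.47 in the first quantification. Ticam1 stood at 0.43, against 1.04, and Ly96 at 0.97, against 1.44. These shifts include the change of reference genes: the centred ratio of Ticam1 was -0.15 and that of Ly96 -0.01. Lbp was under 1 TPM in the first quantification and was not in the test of the ratios.

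Some members share bases with other genes, where a read cannot be assigned to 1 gene from its sequence alone. Ticam2 overlaps Tmed7, a trafficking gene for TLR4, on the same strand, and 838 bases are identical between transcripts of these genes. In the first quantification Ticam2 had 2439, 3253 and 3746 counts in replicates 1, 2 and 3, against 0, 0 and 21.4 for the Tmed7 transcript Tmed7-201. The second quantification gave Tmed7-201 185, 347 and 411 counts. The part of this overlap in the Ticam2 level was not tested. Myd88 shares 224 bases with Acaa1a on the opposite strand, which stood at 13.7, 10.2 and 9.81 TPM. Tirap shares 443 bases with the antisense gene Gm39318, which did not exceed 0.02 TPM. The Tirap locus also overlaps Srpr on the opposite strand, but only at its end: Tirap runs to 35200291 and Srpr begins at 35200175. Srpr was not among the genes that matched Tirap transcripts over at least 100 bases. Tirap had 2.22, 1.75 and 1.71 TPM, against 18.8, 15.7 and 16.1 TPM for Srpr, and how far reads of that gene enter the Tirap value was not tested. Ticam2 and Tirap also hold stretches of 100 to 162 bases that match other genes at 95% identity or more.

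Promoter windows from RefSeq (GRCm38.p6, 250 bases before to 50 after the gene start) were available for 5 of the 10 members: Tirap, Myd88, Ly86, Cd180 and Ticam1. On both strands, the interferon response element core (GAAA, any 2 bases, GAAA) occurred in Myd88 alone among the 5, and in 3.49% of 27025 promoters. The PU.1 core GAGGAA occurred in Ticam1 and in 28.3% of promoters. The AP-1 site TGANTCA and the NF-kB consensus occurred in 0 of the 5, and in 7.93% and 8.18% of promoters. That consensus was searched as GGG, A or G, any 2 bases, C or T, C or T, CC. A member counted if any of its windows held the motif, while the shares of promoters use the first window of each gene. The Myd88 window up to its start is shown because it holds the rarest of these matches, in capitals, ending 8 bases before the start of Myd88-201 (chr9:119340042-119340268, minus strand).
Myd88 promoter: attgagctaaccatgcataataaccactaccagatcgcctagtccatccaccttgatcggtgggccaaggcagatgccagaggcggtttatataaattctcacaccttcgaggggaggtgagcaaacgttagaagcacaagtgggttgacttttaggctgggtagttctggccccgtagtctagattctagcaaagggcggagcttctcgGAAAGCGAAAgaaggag

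The genes around the members were read from lists of the same pathway. Of 4 surface receptor genes, 3 lay above the reference and 0 below it: Tlr2, the receptor for bacterial lipoproteins, at 197 ± 33.3 TPM, its partner Tlr1 at 18.9 ± 2.49 TPM, and Tlr4. Of 11 chaperone and trafficking genes of Toll-like receptors, 10 lay above and 1, Cnpy4, below, with the endoplasmic reticulum chaperone Hsp90b1 at 118 ± 14.5 TPM and the GTPase Arf6 at 60.0 ± 8.38 TPM. Among 7 genes of CD14-dependent uptake, 6 lay above and 0 below, led by the ITAM adaptors Tyrobp at 681 ± 146 TPM and Fcer1g at 488 ± 92.4 TPM. Cd14 had 545, 697 and 513 TPM in replicates 1, 2 and 3, against 587, 475 and 403 TPM for Fcer1g and 849, 586 and 608 TPM for Tyrobp, so it was below both in replicate 1, above both in replicate 2 and between them in replicate 3. The seventh, Cblb, was at 11.6 ± 2.50 TPM and was not called.

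Downstream of MyD88, 4 of 11 listed genes lay above the reference and 1, Peli3, below it. The highest were the ubiquitin ligase Peli1 at 42.0 ± 13.4 TPM and the ubiquitin-conjugating enzyme Ube2n at 37.4 ± 4.25 TPM. Downstream of TRIF, 4 of 10 lay above and 1, Tbkbp1, below, with the TBK1-binding scaffold Tank at 45.5 ± 8.41 TPM and Peli1, a member of both lists, as its highest. Of 7 genes of TIR-domain regulation, 5 were tested, 2 lay above and 3 below. Those above were the PI3-kinase adaptor Pik3ap1 at 105 ± 12.4 TPM and Tollip, a negative regulator, at 27.4 ± 3.02 TPM. Sarm1, the fifth mammalian TIR adaptor, was at 0.02, 0.01 and 0.01 TPM and was not tested. Of 8 other lipopolysaccharide-binding proteins, 6 were tested, 5 lay above and 0 below, with the scavenger receptor Cd36 at 101 ± 22.9 TPM and the lipid receptor Ptafr at 101 ± 14.4 TPM. Bpi, a structural relative of Lbp, was at 0 in all libraries. These counts are to be read against the 20.5% of all genes above the reference and the 50.6% below it.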

How the data were processed

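The authors mapped and quantified the reads on mm10 with GENCODE M21, as the deposited text descriptions state. Per the file headers, one quantification (called the first) gives expected counts, TPM and FPKM per gene and transcript, and another (the second) gives estimated counts and TPM per transcript. Neither the tools nor their versions nor any use of strand could be read from the labels or headers. Values come from the first unless the second, summed per gene, is named.

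In each library, log2(TPM + 0.1) of a gene was set against the reference median, Tlr4 or Myd88. The limma 3.58.1 test ran over all genes, coding and noncoding, averaging 0.1 TPM or more, with Benjamini-Hochberg adjustment over all of them. Its standard errors were moderated, meaning that the variance of each gene was drawn toward that of all genes tested. A call needed an adjusted p under 0.05 and an absolute difference of at least 1. Variation between libraries was tested with edgeR 4.0.16 (R 4.3.3) on expected counts rounded to whole numbers, where every library had 10 or more, with DESeq2 1.42.0 size factors as an alternative. Log2 CPM used a prior count of 2. Shared bases were found with BLAST 2.17.0 at a minimum of 95% identity over 100 bases. The steps were tested on simulated data.

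The members and gene lists were chosen with earlier results of these data known. Named genes were the members, Tlr4, the highest 2 genes of each list and the 2 nearest genes of Cd14, Ly96, Myd88 and Unc93b1. The 7 macrophage markers were named as a full list. Cnpy4, Cblb, Tlr5, Tlr8, Peli3, Tbkbp1, Sarm1, Bpi, Cd79b, Apoa1, Alb, Ttr, Serpina1a, Ahsg, Ly6g, Malat1 and Neat1, and genes that overlap members, were named after their values were seen. The depth ranged from 33671556 to 59332546 counts. Limits on counts cover counting error only, as no molecular identifiers are known to have been used.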

Additional observations from a re-analysis of the deposited data

How the results depend on the processing

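Counts of members called against Tlr4 and against Myd88 were 6 under every alternative tried. Against the reference, the main count of 9 ranged from 6, with a reference of genes of at least 5 TPM, to 9, and from 8 to 9 when 1 replicate was left out. Ticam1 stood closest to the minimum of 1 log2 unit: 1.04 in the values reported, 0.95 with a pseudocount of 1, 0.93 without replicate 1, 0.43 in the second quantification and 0.01 with the 5 TPM reference. Ly96 moved to 0.97 in the second quantification and to 0.41 with the 5 TPM reference, which also put Myd88 at 0.91. Ticam2, not called at 0.47, was at -0.19 in the second quantification and -0.56 with the 5 TPM reference. Values in the second quantification are against its own reference genes, so they include a change of reference. Ly86 minus Cd180 ranged from -1.62 to -1.43 and Ly96 minus Tlr4 from 0.22 to 0.29. The order of the members was the same in the second quantification, with a pseudocount of 1 and with FPKM.

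Without centring, 9 of the 9 members, against 0 with it, were lower in the second quantification, from -1.45 (Ticam2) to -1.03 (Tirap, 0.22 when centred), with Cd180 at -1.25. Centring itself sets that shift. The near-zero centred ratio of Cd180 (0.01) was -0.24 with a pseudocount of 1 and -0.12 with genes of at least 0.1 TPM, and that of Unc93b1 (-0.0046) was -0.26 with a pseudocount of 1, -0.13 with genes of at least 0.1 TPM and -0.037 to 0.025 when 1 replicate was left out. The cause was not tested. The median share of the leading transcript was 95.9% in the second quantification, against 98.0%. Of 213 alternative values of a member's level against the reference, Tlr4 or Myd88, 204 kept their sign and call, and the other 9 are those given above. By expected counts, chosen after seeing the data, the retained-intron share was 4.31% for Cd14, against 8.98% by TPM, and 1.94% for Unc93b1, against 6.55%. Genes were compared within each library, but no pairing between conditions was possible because the replicate numbers belong to 1 group. Depth limits Lbp most, with 26 counts in replicate 1.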
